A study of Mus musculus with 12 samples.

Results

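Open chromatin was described at 8 genes of the Notch pathway in mouse regulatory T cells (Treg). The genes were Notch1, Notch2, Rbpj, Maml1, Maml2, Maml3, Hes1 and Dtx1, and a region belonged to a gene when it overlapped the gene body extended by 20 kb on each side in the mm9 annotation. Of the 118680 open chromatin regions in the data, 117 met this rule, 35 at Maml3, 19 each at Notch2 and Rbpj, 12 each at Notch1, Maml2 and Dtx1, and 4 each at Maml1 and Hes1, and no region belonged to more than 1 of the genes. Accessibility was measured by ATAC-seq, in which Tn5 transposase inserts sequencing adapters into open DNA, in 12 libraries of YFP+ Treg that the labels describe as derived from spleen. Each genotype, WT and Ikzf1-cko, was measured in 2 states, directly ex vivo and stimulated, with 3 libraries in each of the resulting 4 groups. WT cells came from mice with the Foxp3-YFP-Cre allele alone, and Ikzf1-cko cells from mice that also carry a floxed Ikzf1 gene, which encodes the zinc finger protein Ikaros, so that all groups share Foxp3-YFP-Cre and the deletion follows the cells that have expressed Foxp3. Stimulated cells had been cultured on plate-bound anti-CD3 and anti-CD28 antibodies for 4 hours, per the methods, whereas ex vivo cells had not been stimulated. Per the methods, sorted cells were divided between stimulation and no stimulation, but the sources do not say which stimulated and ex vivo libraries come from one sort. The ages of the mice behind these libraries, and whether mice were pooled, are not given in the sources used here.

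Notch proteins are cell surface receptors that are cut when a ligand on a neighboring cell binds them, and the freed intracellular part moves to the nucleus. There it joins RBPJ, the DNA-binding factor of the pathway, and a Mastermind-like (MAML) co-activator, and together they switch on targets such as Hes1, which encodes a repressor, and Dtx1 (Deltex1), an E3 ubiquitin ligase that acts back on the pathway. RBPJ without Notch acts as a repressor. In T cells the pathway is best known for committing thymic progenitors to the T lineage, and it also takes part in helper T cell differentiation and in Treg function.

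The genes lie on mm9 at chr2:26313423-26372183 (Notch1, minus strand), chr3:97817461-97954290 (Notch2, plus strand), chr5:53947018-54048684 (Rbpj, plus strand), chr11:50069136-50105838 (Maml1, minus strand), chr9:13424434-13513832 (Maml2, plus strand), chr3:51491533-51908813 (Maml3, minus strand), chr16:30064470-30067882 (Hes1, plus strand) and chr5:121130211-121161936 (Dtx1, minus strand). The central 300 bases are given here for 5 regions. OCR_86138, OCR_111604 and OCR_71304 each had the smallest p of its gene over both comparisons of genotypes, for the genes with a called region, and OCR_86138, OCR_71302 and OCR_73384 are the regions whose response to stimulation differed between genotypes by the FDR, of which OCR_71302 and OCR_73384 were added after their values were seen. All 5 windows are read on the plus strand of mm9, and no annotated exon overlaps them. The letters GGGAA, the core shared by the Ikaros motif and, within GTGGGAA, by the RBPJ motif, or their reverse complement TTCCC, are in capitals. The windows are an intron of Rbpj at chr5:53985474-53985773 (OCR_86138), an intron of Maml2 at chr9:13506157-13506456 (OCR_111604), an intron 2.3 kb into Maml3 at chr3:51906407-51906706 (OCR_71304), an intron of Maml3 at chr3:51873669-51873968 (OCR_71302) and an intron of Notch2 at chr3:97831245-97831544 (OCR_73384).
OCR_86138: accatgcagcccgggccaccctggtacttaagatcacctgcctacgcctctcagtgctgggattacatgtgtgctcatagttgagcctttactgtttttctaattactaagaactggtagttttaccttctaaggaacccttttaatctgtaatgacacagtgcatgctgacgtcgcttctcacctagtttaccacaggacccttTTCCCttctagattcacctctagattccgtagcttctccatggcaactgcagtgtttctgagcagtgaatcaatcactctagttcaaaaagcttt
OCR_111604: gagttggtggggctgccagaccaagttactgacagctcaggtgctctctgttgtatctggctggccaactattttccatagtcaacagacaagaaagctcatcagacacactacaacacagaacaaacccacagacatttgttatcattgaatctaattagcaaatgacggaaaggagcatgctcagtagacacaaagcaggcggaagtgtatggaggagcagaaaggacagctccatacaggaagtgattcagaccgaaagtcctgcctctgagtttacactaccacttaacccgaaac
OCR_71304: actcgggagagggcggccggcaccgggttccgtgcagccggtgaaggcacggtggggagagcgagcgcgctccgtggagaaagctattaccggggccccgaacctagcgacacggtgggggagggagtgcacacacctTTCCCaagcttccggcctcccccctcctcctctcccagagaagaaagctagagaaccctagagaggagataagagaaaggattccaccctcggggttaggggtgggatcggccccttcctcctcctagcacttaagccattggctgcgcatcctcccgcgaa
OCR_71302: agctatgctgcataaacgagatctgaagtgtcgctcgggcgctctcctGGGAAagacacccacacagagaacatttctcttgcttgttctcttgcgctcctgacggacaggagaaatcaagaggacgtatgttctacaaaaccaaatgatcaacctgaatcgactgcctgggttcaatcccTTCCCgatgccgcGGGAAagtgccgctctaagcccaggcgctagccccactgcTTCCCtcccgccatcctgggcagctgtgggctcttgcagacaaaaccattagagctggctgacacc
OCR_73384: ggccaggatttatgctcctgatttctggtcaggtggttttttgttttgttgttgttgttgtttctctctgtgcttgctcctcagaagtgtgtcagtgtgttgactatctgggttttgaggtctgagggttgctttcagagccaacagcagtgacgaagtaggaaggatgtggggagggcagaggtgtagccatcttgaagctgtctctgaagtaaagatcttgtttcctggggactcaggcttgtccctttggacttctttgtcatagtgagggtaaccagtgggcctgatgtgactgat
OCR_71302 held 4 matches to GGGAA, OCR_86138 and OCR_71304 held 1 each, and the windows of OCR_111604 and OCR_73384 held none. Searched on both strands of the central 300 bases, GGGAA was in 49 of the 73 tested windows at the 8 genes (67.1%) and in 59.3% of all 69957 tested windows. The longer GTGGGAA, which contains GGGAA, was in 12 of the 73 windows (16.4%) and in 6.51% of all, and those 12 included the strongest Rbpj region, OCR_86136, and the intronic Maml3 region OCR_71299. TGANTCA, the AP-1 motif, was in 13 windows (17.8%, against 13.8% of all), OCR_86138 and OCR_111604 among them, and GTAAACA, a forkhead motif, was in 1 (1.37%, against 3.77%). A match describes the letters in a window and shows no binding.

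Counted reads per library ranged from 4808916 to 8596567 in WT and from 9221901 to 15355521 in Ikzf1-cko, without overlap, so that sequencing depth and genotype move together. Thinning all libraries to the smallest was therefore 1 of the alternatives. A region over the start site was found for 5 of 6 Treg and CD4 T cell markers, with 8.89 to 65.6 FPKM (reads scaled to the length of the region and to all counted reads of the library), and for none of 4 B cell markers. Of 4 myeloid markers only Cd68 had one, at 13.6 to 27.5 FPKM. Both CD8 T cell markers had one, at 1.67 to 14.7 FPKM, and the mean at the Cd8a start was 8.45 FPKM in WT and 3.58 in Ikzf1-cko ex vivo, and 9.47 in WT and 5.81 in Ikzf1-cko after stimulation. The part of other cells in the results was not tested, and fewer cells with an open region cannot be told apart from a region less open in each cell. Which part of Ikzf1 is removed is not given in the sources used here, so the deletion was not checked on the regions.

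Of the 117 regions, 73 reached 3.6 CPM (reads scaled to the library's total, with no correction for region length) in at least 3 libraries and were tested, 23 at Maml3, 14 at Rbpj, 11 at Notch2, 9 at Dtx1, 7 at Notch1, 4 at Hes1, 3 at Maml2 and 2 at Maml1. The other 44 had 3 to 56 reads in a library. As 3 libraries sufficed, a region high in a single group could enter the test through that group. Among the tested regions 46 lay in introns, 13 overlapped an exon and 14 lay in the flanks, and some of the flanking regions sit in a neighboring gene. The most accessible was OCR_86136 in an intron of Rbpj (chr5:53980078-53981139), with a mean of 102 FPKM over the 12 libraries, above 99.5% of all tested regions. Second was OCR_61118 in the Notch1 flank (chr2:26300379-26301701), with 72.3 FPKM, which lies over the start of the neighboring gene Sec16a. The median over a gene's tested regions was highest at Maml1 (35.8 FPKM, 2 regions) and lowest at Notch2 (8.63 FPKM).

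Ikzf1-cko Treg were more accessible than WT at regions of Rbpj, Maml3, Maml2, Maml1, Dtx1 and the start of Notch2, while 1 region of Maml2 ex vivo, 1 of Dtx1 after stimulation and 1 of Maml3 in both states were less accessible. The rises at the Notch2 and Maml1 starts, and the differences at Dtx1 after stimulation, did not pass the FDR under loess normalization against abundance. The less accessible regions of Dtx1 and Maml3 entered the test only because of WT libraries, where they are high. A region was called when the Benjamini-Hochberg false discovery rate (FDR) of edgeR's quasi-likelihood test over all 69957 regions was under 0.05 and the log2 fold change was beyond 1 in either direction. Ex vivo, 2 of the 73 regions were called higher in Ikzf1-cko and 1 lower, against 0.588% and 4.04% of all tested regions. After stimulation 5 were called higher and 1 lower, against 1.16% and 20.2% of all. By the FDR alone, 17 regions rose and 2 fell ex vivo (background 8.78% and 12.7%), and 20 rose and 2 fell after stimulation (20.4% and 30.7%). The median log2 fold change over the 73 regions was 0.10 ex vivo and 0.16 after stimulation, where over all tested regions it was −0.13 and −0.11. The scaling moves these centers. With TMM scaling the median of all regions rose by 0.12 ex vivo, and with loess normalization against abundance by 0.13 ex vivo and 0.11 after stimulation, and the called member regions then split into 5 higher and 0 lower ex vivo and 8 and 0 after stimulation (TMM), or 4 and 0, and 7 and 0 (loess). DESeq2 shifted the stimulated median by 0.10 and called 5 higher and 1 lower ex vivo, and 8 and 0 after stimulation. The shares of all tested regions moved as well. Under loess 1.3% of all were called higher and 0.941% lower ex vivo, and after stimulation 2.34% were called higher and 3.5% lower under loess, against 1.72% and 19% with TMM and 2.05% and 18.5% with DESeq2. Highly accessible regions tended to have higher values in Ikzf1-cko: over the 10% most abundant tested regions (decile 10) the median log2 fold change was 0.14 ex vivo and 0.37 after stimulation. Regions named below outside the fixed naming rule, among them those called in a single comparison, were chosen after their values were seen.

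Of the receptor genes, Notch2 was more accessible in Ikzf1-cko at its start and at an intronic region, whereas no Notch1 region differed between genotypes at an FDR under 0.05, though the alternatives moved OCR_61118 in the Notch1 flank to either side after stimulation, −0.24 under loess (FDR 0.0048) and 0.23 to 0.26 with TMM and DESeq2 (FDR 0.038 and 0.01). It also passed as higher with the replicate number as a block and without Ikzf1-cko stimulated replicate 1, and OCR_61121 passed as higher ex vivo with TMM. The region over the Notch2 start (OCR_73383, chr3:97816990-97818209) had 27.8, 28.2 and 28.7 FPKM in the WT ex vivo libraries and 32.1, 36.5 and 32.8 in Ikzf1-cko ex vivo, then 27.7, 29.4 and 32.7 in WT and 39.3, 40.2 and 40.6 in Ikzf1-cko after stimulation. The genotypes did not overlap in either state, and the log2 fold change was 0.26 (SE 0.08, FDR 0.027) ex vivo and 0.43 (SE 0.09, FDR 0.0002) after stimulation. Over the alternatives the FDR reached 0.23 ex vivo, where it was also lost with thinned counts, with limma and without WT ex vivo replicate 1 or 2 or Ikzf1-cko ex vivo replicate 2, and 0.45 after stimulation, where it was lost under loess alone. The intronic region OCR_73384 (chr3:97831068-97831720, 13.9 kb into the gene) had 17.4, 20.7 and 22.6 FPKM in WT ex vivo, 23.6, 25.9 and 25 in Ikzf1-cko ex vivo, 9.37, 10.9 and 8.28 in WT stimulated and 21.6, 18.5 and 17.5 in Ikzf1-cko stimulated. The WT stimulated libraries were the lowest of all 12 at this region. Its log2 fold change between genotypes was 0.27 (SE 0.13, FDR 0.11) ex vivo and 1.00 (SE 0.17, FDR 1.6e-05) after stimulation, just under the threshold of 1. Regions of its abundance (decile 8) had a median of −0.01 ex vivo and 0.15 after stimulation.

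OCR_61126 (chr2:26353043-26354069, over an exon) had 8.24, 8.39 and 8.38 FPKM in WT ex vivo, 8.18, 10.8 and 9.99 in Ikzf1-cko ex vivo, 10.3, 15.7 and 13.6 in WT stimulated and 14.5, 15.6 and 13.2 in Ikzf1-cko stimulated. It rose on stimulation in both genotypes without overlap, by a log2 fold change of 0.65 in WT (SE 0.17, FDR 0.0023) and 0.58 in Ikzf1-cko (SE 0.13, FDR 0.0018). OCR_61128 (chr2:26358253-26359835), which covers an annotated Notch1 transcript start, rose by 0.31 in WT (SE 0.12, FDR 0.03) and 0.35 in Ikzf1-cko (SE 0.10, FDR 0.011). The genotypes overlapped at both regions. In the difference between genotypes after stimulation these regions had values of 0.14 (FDR 0.46) and 0.05 (FDR 0.75).

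Rbpj, the gene of the DNA-binding factor, held the member region with the smallest p between genotypes after stimulation. At this gene 7 of 14 regions (50%) rose in Ikzf1-cko after stimulation by the FDR alone, against 20.4% of all tested regions. Ex vivo 5 of 14 (35.7%) rose, against 8.78% of all. None fell in either state, against 12.7% of all ex vivo and 30.7% after stimulation. OCR_86138 (chr5:53985353-53985893, in an intron) had 64.4, 70.0 and 78.3 FPKM in WT ex vivo and 95.7, 90.7 and 85.8 in Ikzf1-cko ex vivo. After stimulation it had 25.4, 28.7 and 28.1 FPKM in WT and 54.9, 56.4 and 59.6 in Ikzf1-cko. The 4 groups did not overlap, and from high to low they were ex vivo Ikzf1-cko, ex vivo WT, stimulated Ikzf1-cko and stimulated WT. The log2 fold change between genotypes was 0.35 (SE 0.08, FDR 0.0038) ex vivo and 1.06 (SE 0.11, FDR 2.8e-08) after stimulation. Under loess the latter was 0.75 (FDR 1.4e-06), below the threshold of 1.

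**Figure D1:**
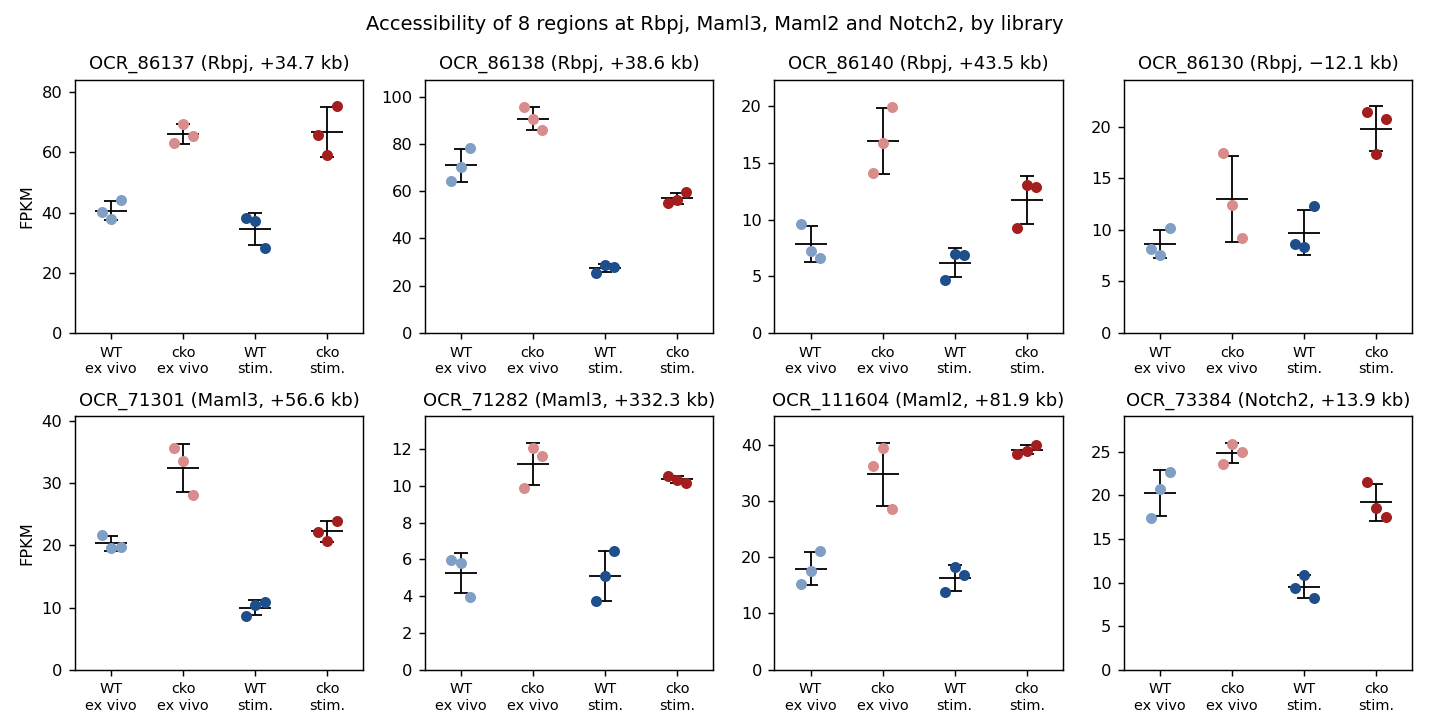
FPKM (vertical axis) of 8 selected regions at Rbpj, Maml3, Maml2 and Notch2, in each library of the 4 groups (horizontal axis), with points for libraries, wide horizontal marks for the group mean and error bars for the SD. All 8 had a higher mean in Ikzf1-cko than in WT in both states. The regions called lower, OCR_111598 and OCR_71274, are not shown. At OCR_86138 the WT stimulated libraries sit at 25.4 to 28.7 FPKM, below the 54.9 to 59.6 of the Ikzf1-cko stimulated libraries.

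The start of other annotated Rbpj transcripts lies in OCR_86137 (chr5:53981314-53982046, over an exon), 34.7 kb into the gene. It had 40.2, 37.8 and 44.1 FPKM in WT ex vivo, 63.1, 69.6 and 65.4 in Ikzf1-cko ex vivo, 38.1, 37.1 and 28.4 in WT stimulated and 65.8, 59.0 and 75.6 in Ikzf1-cko stimulated. Here every Ikzf1-cko library was above every WT library, while stimulation gave −0.23 in WT (FDR 0.11) and 0.02 in Ikzf1-cko (FDR 0.89). The log2 fold change between genotypes was 0.69 (SE 0.10, FDR 6.9e-06) ex vivo and 0.94 (SE 0.11, FDR 9.3e-08) after stimulation, or 0.61 (FDR 2.4e-05) under loess. OCR_86140 (chr5:53990347-53990766, in an intron) was the called Rbpj region ex vivo, with 9.62, 7.26 and 6.65 FPKM in WT and 14.1, 16.8 and 19.9 in Ikzf1-cko, a log2 fold change of 1.14 (SE 0.21, FDR 0.00025). It passed the filter only because of its Ikzf1-cko libraries, so that its rise is not independent of the filter. With 3.6 CPM required in all 12 libraries it was not tested. After stimulation it had 4.72, 6.96 and 6.93 FPKM in WT and 9.29, 13.1 and 12.9 in Ikzf1-cko (log2 fold change 0.94, FDR 0.0028). OCR_86130, 12.1 kb upstream of the gene (chr5:53934612-53935204), was called after stimulation, where WT had 8.64, 8.32 and 12.3 FPKM and Ikzf1-cko 21.4, 17.3 and 20.7 (log2 fold change 1.04, SE 0.21, FDR 0.00017). Its ex vivo rise (0.60, FDR 0.036) was lost under 7 of 21 alternatives. The strongest region, OCR_86136, rose less, by a log2 fold change of 0.21 (FDR 0.031) ex vivo and 0.44 (FDR 2.3e-05) after stimulation, near the 0.37 of its abundance decile.

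Among the co-activators, Maml3 rose in Ikzf1-cko at 8 of 23 regions (34.8%) in each state by the FDR alone, and 1 region (4.35%) fell in each. Of all tested regions 8.78% rose and 12.7% fell ex vivo, and 20.4% rose and 30.7% fell after stimulation. OCR_71282 (chr3:51576076-51577010, in an intron far from the start) was the only one of the 73 regions called in the same direction in both states. It had 5.97, 5.81 and 3.98 FPKM in WT ex vivo, 9.89, 12 and 11.6 in Ikzf1-cko ex vivo, 3.71, 5.08 and 6.45 in WT stimulated and 10.6, 10.3 and 10.2 in Ikzf1-cko stimulated, and the genotypes did not overlap. The log2 fold change was 1.11 (SE 0.18, FDR 3e-05) ex vivo and 1.05 (SE 0.20, FDR 7.2e-05) after stimulation. A cluster of neighboring intronic regions, OCR_71299, OCR_71300 and OCR_71301 (from chr3:51849899-51850436 to chr3:51851908-51852484), also separated the genotypes. In it OCR_71301 had 21.7, 19.5 and 19.8 FPKM in WT ex vivo, 35.7, 33.5 and 28.1 in Ikzf1-cko ex vivo, 8.60, 10.4 and 10.8 in WT stimulated and 22.2, 20.6 and 23.9 in Ikzf1-cko stimulated. Its log2 fold change of 0.69 ex vivo (SE 0.13, FDR 0.0002) and 1.17 after stimulation (SE 0.17, FDR 2.2e-06) was called only after stimulation. Near the start, OCR_71304 (chr3:51905671-51907442) rose by a log2 fold change of 0.43 (SE 0.07, FDR 6.7e-05) ex vivo, from a mean of 25.8 to 35.0 FPKM, and by 0.55 (SE 0.08, FDR 1.7e-06) after stimulation, from 24.4 to 35.8. Under loess the stimulated value was 0.19 (FDR 0.036). The region over the Maml3 start itself, OCR_71306, did not pass, with 0.05 (FDR 0.82) ex vivo and 0.335 (FDR 0.085) after stimulation. Its stimulated value passed with TMM and without Ikzf1-cko stimulated replicate 1. The lower call after stimulation was OCR_71274 (chr3:51534625-51535272), with 6.89, 9.02 and 5.78 FPKM in WT and 3.68, 3.61 and 3.36 in Ikzf1-cko (log2 fold change −1.03, SE 0.27, FDR 0.0017). It passed the filter only through its WT libraries, where it is high, so that its lower value is not independent of the filter. Under loess the FDR there was 0.081.

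**Figure D2:**
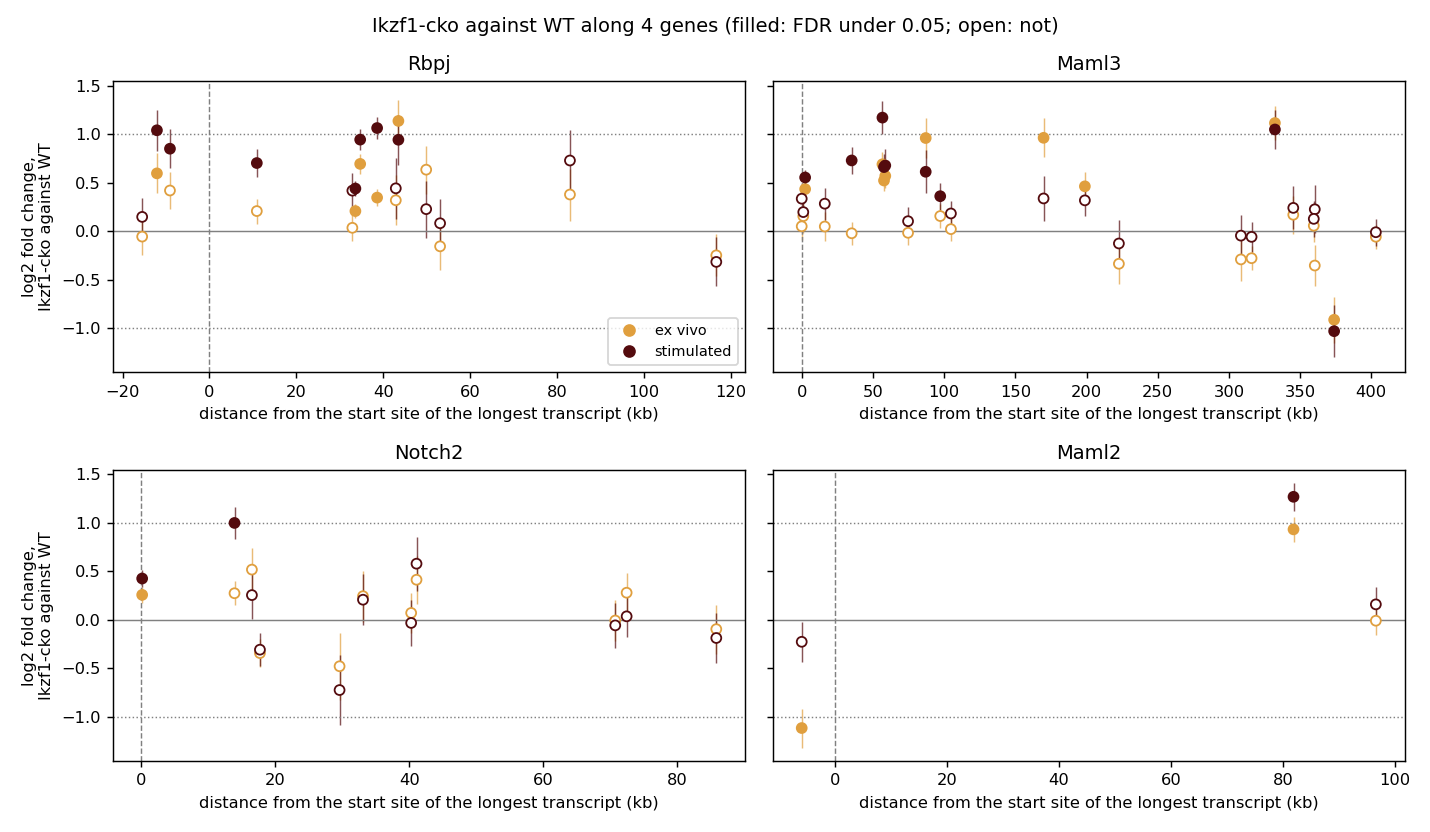
Log2 fold change of Ikzf1-cko against WT (vertical axis, bars are standard errors) for each tested region by its distance from the start of the longest transcript in kb (horizontal axis) at Rbpj, Maml3, Notch2 and Maml2, ex vivo and after stimulation, with filled points at an FDR under 0.05 and dotted lines at 1 and −1. At Rbpj 5 of 14 points are filled above 0 ex vivo and 7 of 14 after stimulation, and none is filled below 0. Of all tested regions 8.78% passed as higher ex vivo and 20.4% after stimulation.

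Maml2 gave the largest log2 fold change after stimulation, at OCR_111604 (chr9:13505967-13506646, in an intron). It had 15.3, 17.5 and 21.0 FPKM in WT ex vivo and 36.3, 39.4 and 28.5 in Ikzf1-cko ex vivo, then 13.9, 18.3 and 16.8 in WT stimulated and 38.4, 38.9 and 40.0 in Ikzf1-cko stimulated. On stimulation it had −0.17 in WT (FDR 0.42) and 0.16 in Ikzf1-cko (FDR 0.28). The genotypes did not overlap in either state, and the log2 fold change between them was 0.93 (SE 0.13, FDR 4.7e-06) ex vivo and 1.27 (SE 0.14, FDR 7.1e-08) after stimulation. The tested region nearest to the Maml2 start, OCR_111598 (chr9:13418124-13418860, 5.9 kb upstream), went the other way ex vivo, with 8.61, 9.53 and 9.63 FPKM in WT and 5.66, 3.45 and 3.6 in Ikzf1-cko (log2 fold change −1.11, SE 0.20, FDR 0.00017). After stimulation it had 7.85, 9.67 and 7.90 FPKM in WT and 7.95, 6.21 and 7.57 in Ikzf1-cko, and the groups overlapped. On stimulation OCR_111598 rose by 0.75 in Ikzf1-cko (FDR 0.0056, but 0.22 with thinned counts) and had −0.14 in WT (FDR 0.62). The difference of these responses, 0.89 (FDR 0.053), was the largest of the 73 regions. It passed the FDR without Ikzf1-cko ex vivo replicate 1 or WT stimulated replicate 2. The region over the Maml1 start, OCR_17787 (chr11:50105038-50106409), rose from a mean of 35.4 to 42.7 FPKM ex vivo (log2 fold change 0.28, SE 0.07, FDR 0.008) and from 32.7 to 41.9 after stimulation (0.36, SE 0.08, FDR 0.00043), but the stimulated value was −0.00 (FDR 0.99) under loess normalization against abundance, and the FDR ex vivo reached 0.15 over the alternatives, being lost under loess and without WT ex vivo replicate 2.

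Of the target genes, Hes1 did not pass the test at any of its 4 regions in any comparison. The region over its start, OCR_45039, and its neighbors had a mean of 11.3 to 18.7 FPKM over the 12 libraries. At OCR_45041 (chr16:30070134-30071096) the groups had 14.6, 16.5 and 16.4 FPKM in WT ex vivo, 18.2, 17.1 and 17.2 in Ikzf1-cko ex vivo, 17.2, 14.2 and 17.3 in WT stimulated and 18.8, 15.9 and 15.2 in Ikzf1-cko stimulated. At Dtx1 an intronic region, OCR_89063 (chr5:121135645-121136290), had 16.7, 18 and 20.9 FPKM in WT ex vivo, 30.3, 28.8 and 27.3 in Ikzf1-cko ex vivo, 14.1, 16.4 and 15.5 in WT stimulated and 22.8, 17.8 and 23.1 in Ikzf1-cko stimulated. It rose in Ikzf1-cko by a log2 fold change of 0.62 (SE 0.13, FDR 0.00065) ex vivo and 0.48 (SE 0.15, FDR 0.0078) after stimulation, the latter lost under loess and without WT stimulated replicate 1 (FDR up to 0.11). OCR_89061, in the Dtx1 flank, fell after stimulation (log2 fold change −0.88, SE 0.27, FDR 0.0066) at 4.14 to 11.1 FPKM, and this was lost under loess, with thinned counts and without Ikzf1-cko stimulated replicate 3 (FDR up to 0.18). It passed the filter only because of its WT libraries, where it is high. The Dtx1 start (OCR_89068, chr5:121160720-121162180) had values of 0.21 (FDR 0.18) and 0.10 (FDR 0.47) and did not pass.

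On stimulation, 4 of 14 regions of Rbpj, 5 of 23 of Maml3, 1 of 11 of Notch2 and 1 of 3 of Maml2 fell in WT by the FDR alone. With 21.7% at Maml3 and 9.09% at Notch2, against 20.7% of all, these genes were near or below the background. In Ikzf1-cko 5 of Rbpj, 5 of Maml3, 1 of Notch2 and 2 of Dtx1 fell (background 11.5%). At Notch1 3 of 7 regions rose in each genotype, and at Dtx1 3 of 9 in WT. Of the Notch1 regions, OCR_61126 and OCR_61128 rose in both. OCR_61121 passed as higher in WT alone (0.37, FDR 0.021, −0.008 with FDR 0.97 in Ikzf1-cko) and OCR_61118 in Ikzf1-cko alone (0.30, FDR 0.0026, 0.16 with FDR 0.10 in WT). The difference of these responses between genotypes did not pass, with −0.38 (FDR 0.16) at OCR_61121 and 0.14 (FDR 0.42) at OCR_61118. That of OCR_61121 passed under loess (FDR 0.042). The WT rise of OCR_61121 was lost under 4 of 21 alternatives, and that of OCR_61118 passed under 4 of 21. In Ikzf1-cko 1 region each of Rbpj (OCR_86130, 0.58, FDR 0.011), Maml3 (OCR_71284, 0.56, FDR 0.035) and Notch2 (its start, OCR_73383, 0.24, FDR 0.02) rose. So did 1 each of Maml1 (OCR_17784, 0.23, FDR 0.032), Maml2 (OCR_111598, 0.75, FDR 0.0056) and Dtx1 (OCR_89059, 0.97, FDR 0.022). The rises of OCR_86130 and OCR_73383 were lost with thinned counts, limma and DESeq2, that of OCR_86130 also without Ikzf1-cko stimulated replicate 1, and that of OCR_73383 also with TMM and without Ikzf1-cko ex vivo replicate 1 or stimulated replicate 2 or 3. Thinned counts also lost the rises of OCR_17784, OCR_111598 and OCR_89059, which failed under 9 of 21, 1 of 20 and 5 of 20 alternatives. For OCR_71284 the values under the alternatives were not looked up. In WT, 1 of the 73 regions was called higher and 4 lower on stimulation, against 17.7% and 2.32% of all tested regions. Under loess, which called 3.19% of all regions higher and 2.75% lower, none of the 73 was higher and 3 were lower. In Ikzf1-cko none was called in either direction, against 3.02% and 0.632%, and 27 of the 73 (37.0%, against 36.2% of all) had an unadjusted p under 0.05 in edgeR's test, with 1 lower call when libraries were thinned and none with TMM, loess or DESeq2. By the FDR alone 6 regions rose and 11 fell in WT (26.9% and 20.7%), and 9 rose and 13 fell in Ikzf1-cko (12% and 11.5%). The median over the 73 regions was −0.11 in WT and −0.07 in Ikzf1-cko, with 0.04 and 0.06 over all tested regions, and it stayed below 0 under TMM, loess and DESeq2. In decile 10 of abundance, which holds OCR_86138, the median response of all regions was −0.24 in WT and −0.01 in Ikzf1-cko.

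OCR_86138 fell the most of the 73 regions in WT, by 1.39 on the log2 scale (SE 0.11, FDR 8.5e-11) and by 0.67 in Ikzf1-cko (SE 0.08, FDR 5.1e-07). At the same gene OCR_86135 (chr5:53979716-53980030, in an intron of Rbpj) fell from 57.4, 53.8 and 65.0 FPKM to 22.6, 30.7 and 28.4 in WT (log2 fold change −1.12, SE 0.18, FDR 1.3e-05), and from 69.9, 63.4 and 46.7 to 29.3, 43.9 and 35.2 in Ikzf1-cko (−0.74, SE 0.14, FDR 0.00024). The Notch2 region OCR_73384 fell by 1.10 in WT (SE 0.17, FDR 7e-06) and by 0.38 in Ikzf1-cko (SE 0.12, FDR 0.021), the latter lost under 6 of 21 alternatives with an FDR up to 0.30, among them those without Ikzf1-cko ex vivo replicate 2 or stimulated replicate 2 or 3. The Maml3 region OCR_71301 fell by 1.03 in WT (SE 0.18, FDR 3.1e-05) and by 0.55 in Ikzf1-cko (SE 0.12, FDR 0.00081). The called rise in WT was OCR_89059 (chr5:121124475-121124835), which lies in an exon of Rasal1 within the Dtx1 flank and went from 4.80, 6.24 and 4.83 FPKM to 13.7, 11.6 and 10.9 (log2 fold change 1.19, SE 0.34, FDR 0.0049). It had 0.21 (FDR 0.64) under loess normalization against abundance. Only 9 to 30 reads lay there in a WT library. OCR_89059 passed the filter only through the WT stimulated libraries, so that its rise in WT is not independent of the filter.

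**Figure D3:**
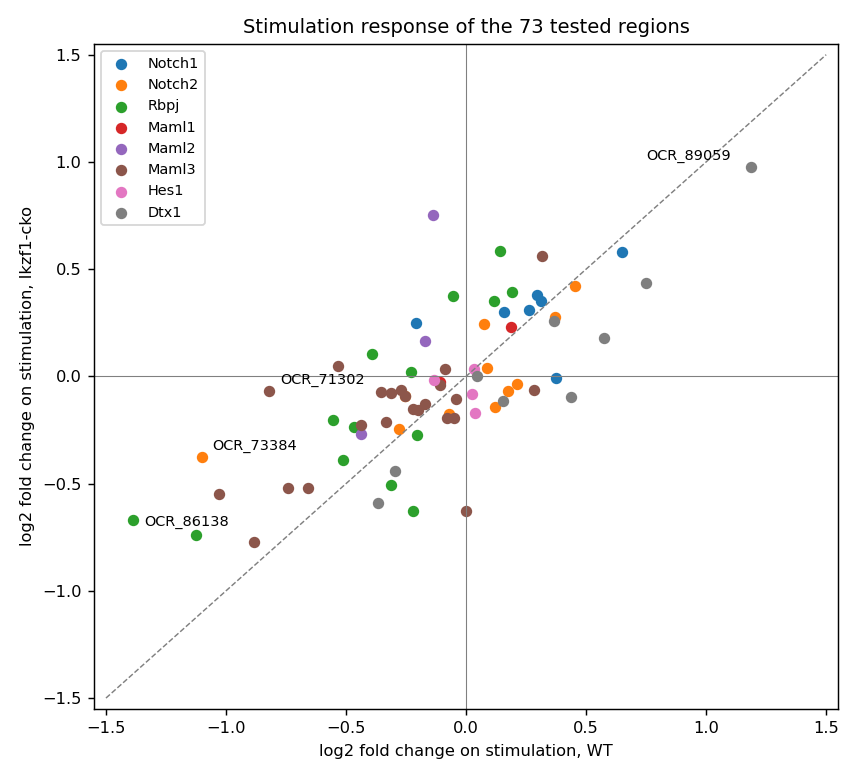
Log2 fold change on stimulation in Ikzf1-cko (vertical axis) against that in WT (horizontal axis) for the 73 tested regions, each gene in its own color. The 3 regions whose response differed by the test, OCR_86138, OCR_71302 and OCR_73384, lie above the line of equal response, with WT values of −1.39, −0.82 and −1.10 and Ikzf1-cko values of −0.67, −0.07 and −0.38.

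Whether the response to stimulation differed between genotypes was tested as an interaction, Ikzf1-cko response minus WT response. No member region was called beyond a log2 difference of 1, against 0.579% higher and 1.4% lower of all tested regions. By the FDR alone 3 of the 73 were higher and none lower, against 5.66% and 1.82%, so that the share of higher regions, 4.11%, was below the background. Of the 73 values 8 (10.96%, against 24.5% of all) had an unadjusted p under 0.05 in edgeR's test, and limma and DESeq2 also called none. OCR_86138 at Rbpj had a difference of 0.72 (SE 0.14, FDR 0.0019). OCR_71302 at Maml3 (chr3:51873296-51874340) had 25.4, 26 and 27.7 FPKM in WT ex vivo and 30.4, 26.2 and 21.1 in Ikzf1-cko ex vivo, with overlap. After stimulation it had 12.2, 17.1 and 15.9 FPKM in WT and 22.0, 25.4 and 26.9 in Ikzf1-cko, without overlap (0.73, or 0.45 under loess), and the difference of the responses was 0.75 (SE 0.18, FDR 0.01). OCR_73384 at Notch2 had 0.72 (SE 0.21, FDR 0.031). The FDR at OCR_71302 rose to 0.051 under loess and was also lost without WT stimulated replicate 1, and that at OCR_73384 was lost under 10 of 20 alternatives with an FDR up to 0.12, among them TMM, loess, limma, DESeq2 and the omission of WT ex vivo replicate 2 or 3, WT stimulated replicate 1 or 3 or Ikzf1-cko stimulated replicate 1 or 2. At OCR_86138 the FDR stayed between 0.00048 and 0.021 over the alternatives. In the decile of OCR_86138 the median of all regions was 0.21.

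Summed over all regions of a gene, accessibility was higher by the FDR in Ikzf1-cko at Rbpj and Maml3 in both states and at Maml2, Maml1 and Notch2 after stimulation. Which sums passed in a state depended on the setting. The sums over the 19 Rbpj regions were 268, 252 and 273 CPM in WT ex vivo, 340, 332 and 301 in Ikzf1-cko ex vivo, 186, 201 and 185 in WT stimulated and 276, 282 and 293 in Ikzf1-cko stimulated. By a fit to the sums of 19323 genes, which gives a background of 12.7% of genes higher and 9.64% lower ex vivo and 37.1% and 24.4% after stimulation, Rbpj rose in Ikzf1-cko by a log2 fold change of 0.29 (SE 0.06, FDR 0.0032) ex vivo and 0.57 (SE 0.06, FDR 4.1e-06) after stimulation. Maml3 rose by 0.19 (FDR 0.018) and 0.32 (FDR 1e-04). Ex vivo Maml2 (0.10, FDR 0.32), Maml1 (0.14, FDR 0.066), Notch2 (0.10, FDR 0.12) and Dtx1 (0.16, FDR 0.11) did not pass. They passed as higher under 3, 5, 2 and 3 of 21 alternatives, in that order. After stimulation Maml2 (0.35, FDR 0.00075), Maml1 (0.20, FDR 0.0057) and Notch2 (0.17, FDR 0.008) rose as well, while Notch1, Hes1 and Dtx1 had 0.08 (FDR 0.31), 0.06 (FDR 0.49) and −0.08 (FDR 0.34). Under loess the rise of Notch2 after stimulation became −0.04, that of Maml3 0.0006 and that of Maml1 0.01, while that of Rbpj was 0.26 (FDR 0.0002). With TMM the rise of Notch2 after stimulation was also lost. The rise of Maml3 ex vivo was lost under loess, with a 50 kb flank and without replicate 1 or 2 of either ex vivo group (FDR up to 0.18).

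**Figure D4:**
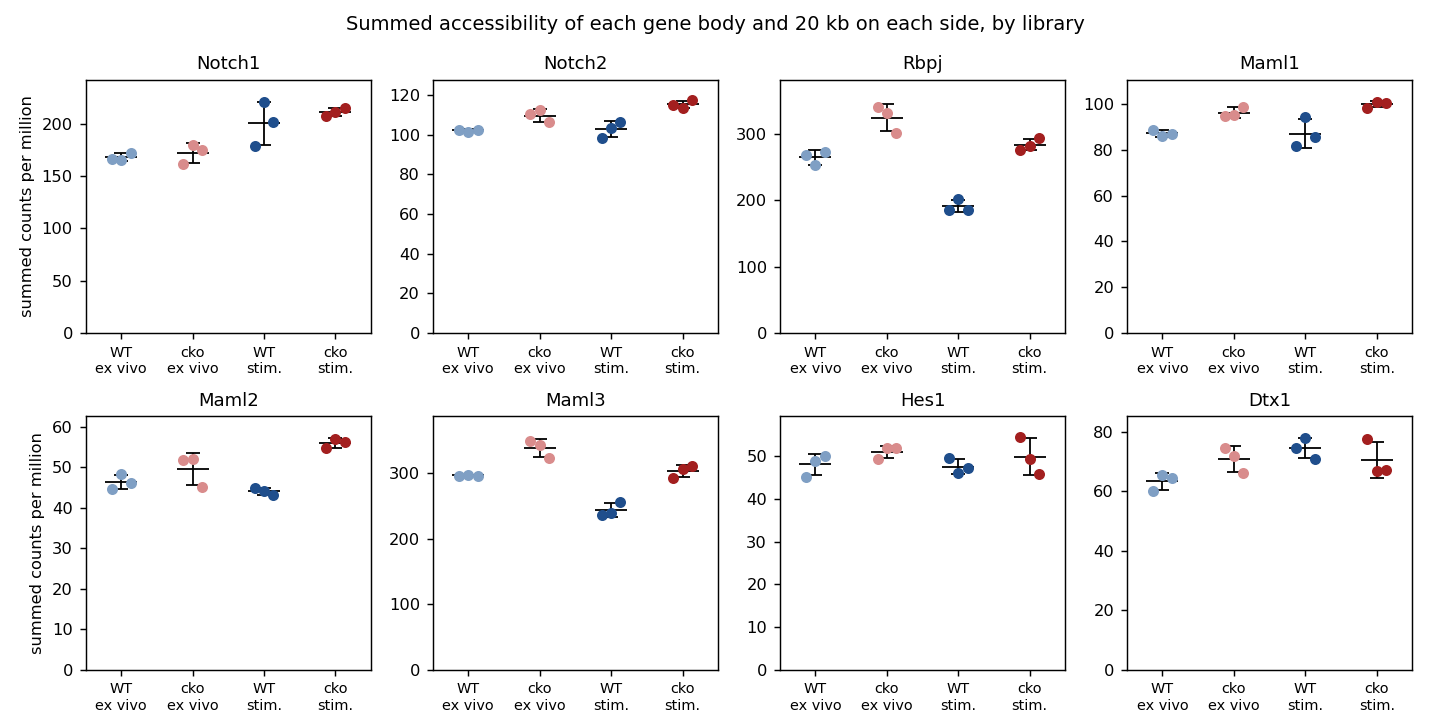
Summed accessibility in CPM (vertical axis) of all regions at each of the 8 genes, with points for the 3 libraries of each of the 4 groups (horizontal axis), wide horizontal marks for the group mean and error bars for the SD. At Rbpj the WT stimulated libraries sit at 185 to 201 CPM, below the 276 to 293 of the Ikzf1-cko stimulated libraries.

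On stimulation Rbpj fell by 0.47 in WT (FDR 2.1e-05) and by 0.19 in Ikzf1-cko (FDR 0.018), and Maml3 by 0.28 (FDR 0.00037) and 0.16 (FDR 0.029). Under loess the WT value of Maml3 turned to 0.05 (FDR 0.36) and that of Rbpj was −0.17 (FDR 0.0044). Notch1 rose in both genotypes, by 0.25 (FDR 0.0047) and 0.30 (FDR 0.0027), and Dtx1 rose in WT by 0.23 (FDR 0.015), where its Ikzf1-cko value was −0.01 (FDR 0.92). The Dtx1 rise was lost with 3.6 CPM required in all 12 libraries, without WT ex vivo replicate 1 or WT stimulated replicate 2, and with the gene body alone or a 50 kb flank (lowest log2 fold change 0.0074, FDR up to 0.95). The background on stimulation was 32.1% higher and 27.8% lower in WT, and 23.2% higher and 9.09% lower in Ikzf1-cko. Of the 8 sums only that of Rbpj had a response that differed between genotypes by the FDR, 0.28 (SE 0.08, FDR 0.032), against 14.5% of genes higher and 3.35% lower. Under loess it was 0.06 (FDR 0.51), and it was lost under 9 of 20 alternatives, also with TMM and without WT ex vivo replicate 1 or 3, WT stimulated replicate 1 or 3, Ikzf1-cko ex vivo replicate 3 or Ikzf1-cko stimulated replicate 2 or 3. In the Ikzf1-cko response the falls of Rbpj and Maml3 were lost under loess and without replicate 1 or 2 of either Ikzf1-cko group, with an FDR up to 0.093 and 0.44, and that of Maml3 also with thinned counts.

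The genes whose log2 summed CPM over the 12 libraries was most like that of each member were Gnptab (r = 0.995) and Prkci (0.994) for Rbpj, Hopx (0.988) and Gm15831 (0.986) for Maml3, Tcf3 (0.981) and Smcr7l (0.976) for Notch1, and Chmp3 (0.98) and Tigd4 (0.977) for Maml2. For Notch2 they were Zfp780b and Zfp850 (both 0.961), for Maml1 Gatm (0.966) and Tm2d2 (0.962), for Dtx1 Gpr107 (0.93) and Ccm2 (0.864), and for Hes1 Golga4 (0.819) and Sgpl1 (0.774). These are Pearson correlations over the same 12 libraries, which share the groups and depths, and are given as a description.

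The 20 kb rule drew the boundary of the set. Just inside it lay OCR_17784 at Maml1 (18 kb from the gene body), which had −0.00 (FDR 0.98) ex vivo and 0.04 (FDR 0.72) after stimulation between genotypes. Just outside lay OCR_73381 at Notch2 (20.7 kb), with −0.52 (FDR 0.04) and 0.35 (FDR 0.18), and it was not counted among the 117.

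In a list of 43 other Notch pathway genes, 218 of 343 regions were tested. Ex vivo none was called higher in Ikzf1-cko and 4 (1.83%, against 4.04% of all tested regions) were called lower, and after stimulation 2 (0.917%) were higher and 6 (2.75%, against 20.2% of all) lower. By the FDR alone 17 were higher and 10 lower ex vivo, and 52 (23.9%) higher and 23 (10.6%) lower after stimulation. The higher calls were at Kat2b (OCR_51209, log2 fold change 1.46, FDR 1.1e-07), the gene of a histone acetyltransferase, and Snw1 (OCR_25400, 1.14), while lower calls after stimulation included regions of Jag1, Hey1, Numb and Snw1. The ligand gene Jag1 gave −1.33 ex vivo and −1.84 after stimulation at OCR_66652. On stimulation 8 (3.67%) were higher and 3 (1.38%) lower in WT, and 9 (4.13%) and 1 (0.459%) in Ikzf1-cko, among them Psen2, a gamma-secretase subunit, at OCR_7786 (−1.10 in WT and −1.05 in Ikzf1-cko) and Notch4 at OCR_50193 (1.21 in Ikzf1-cko). The difference of the response was called higher at 1 region, in Kat2b (OCR_51205, 1.03).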

How the data were processed

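The data are 12 ATAC-seq libraries, placed in groups by their labels. Per the paper's methods and the labels' processing notes, the authors aligned reads with Bowtie2, called peaks with MACS2 and merged them into a reference set of regions in mm9. The methods print a human build, whereas the labels and coordinates are mm9. The deposited count is of reads per region and library, without normalization. The deposited FPKM value is the count scaled to the length of the region and to all counted reads of the library. A further table of the authors' own comparisons (log2 fold changes, p-values and FDR) was not used. Their background normalization needs reads outside the regions and was not analysed here.

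Counts were tested with edgeR 4.0.16 (R 4.3.3) by quasi-likelihood with library totals as scaling, over all 12 libraries, for regions of at least 3.6 CPM in at least 3 libraries (69957 of 118680), and FDR values were adjusted over all of them. SE is the absolute log2 fold change over the square root of F. Reads summed per gene were tested the same way. The fit was tested on simulated counts of 69957 regions for the comparison of genotypes ex vivo, with the same spread set for every region. Of 200 regions given a true log2 difference of 2 it recovered 190, and it made 13 false calls among the others. Differences near 1 and shifts with abundance were not simulated, so it does not show how well calls near 1 are recovered. The regions named are, for each gene, that over or nearest to the start and the smallest p in each comparison, and those called in the difference of the response or in both genotype comparisons in the same direction; others were named after their values were seen. Alternatives were limma 3.58.1, DESeq2 1.42.0, TMM, loess against abundance, thinned counts, other filters, another flank and leaving out libraries, with the summed reads over tested regions alone added after seeing the data. Counted reads ranged from 4808916 to 15355521 per library. The members and gene lists were chosen with earlier results of these data known, and the paper names several of these genes from the same study. Tables were handled with Python 3.11.15, pandas 2.3.3 and SciPy 1.17.1. Replicates are described as biological, and p-values measure the spread between these libraries. Some results at other genes of the pathway list are not reported here.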

Additional observations from a re-analysis of the deposited data

Results flagged for a closer look

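In 4 results the response to stimulation differed between genotypes by the interaction test of edgeR at an FDR under 0.05. At Maml3 the region OCR_71302 had a difference of 0.7507 on the log2 scale, Ikzf1-cko minus WT. OCR_73384 at Notch2 had 0.7246 and OCR_86138 at Rbpj had 0.717. The summed accessibility of Rbpj had 0.2793. In each the fall on stimulation was larger in WT than in Ikzf1-cko. The depth of the libraries moves with genotype, and its part was not tested beyond thinning, under which the FDR was 0.046, 0.018, 0.0073 and 0.029 in that order.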

How the results depend on the processing

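Over 150 region values and 40 gene sums, 3075 and 832 alternative values were computed; 2942 and 778 kept their direction and side of the threshold. The number of the 73 regions called between genotypes ex vivo, 3 as reported, was 5 with TMM, 0 when 3.6 CPM was required in all 12 libraries, 5 with no filter, 1 with limma, 6 with DESeq2 and 19 by the FDR alone. After stimulation, 6 as reported, it was 3 with limma and 22 by the FDR alone. The WT response, 5 as reported, gave 3 with loess, 9 with no filter and 17 by the FDR alone. The Ikzf1-cko response, 0 as reported, gave 1 with thinned counts, 3 with no filter, 22 by the FDR alone and 1 with a 50 kb flank, and the difference of the response, 0 as reported, gave 3 by the FDR alone. Leaving out 1 library gave 2 to 6, 5 to 8, 3 to 6, 0 to 1 and 0 to 1 in these 5 comparisons. Ex vivo, the omission of WT ex vivo replicate 1 gave 5 and that of Ikzf1-cko ex vivo replicate 3 gave 6, in WT 3 without WT stimulated replicate 1, in Ikzf1-cko 1 without Ikzf1-cko ex vivo replicate 1 or 3 or stimulated replicate 1 or 2, and 1 difference without Ikzf1-cko ex vivo replicate 1.

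Reversed under loess against abundance, for stimulated Ikzf1-cko against WT, were OCR_17784 (−0.2921), OCR_17787 (−0.0022), OCR_61118 (−0.2427), the sum of Notch1 (−0.1994) and the sum of Notch2 (−0.0438), and for the WT response the sum of Maml3 (0.0512). The sum of Notch2 in the WT response became −0.1882 with 3.6 CPM required in all 12 libraries. The cause was not tested. With the replicate number as a block the counts were 3, 7, 5, 0 and 0, with 188 of 190 values unchanged in direction and call and 2 now past the threshold, but deviations of samples sharing a number correlated at −0.409 to 0.238, and no source used here ties a number to a sort, so the block was not used for the results. A fit on the compared libraries alone was not run for the difference of the response, and gene sums without a filter equal those reported.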
